A study of Mus musculus with 68 samples.

Results

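The genes described here are 39 genes of the machinery that loads amino acids onto tRNAs: 20 that encode the cytosolic aminoacyl-tRNA synthetases, 16 that encode their mitochondrial counterparts (names ending in 2) and 3 that encode the non-enzymatic scaffold proteins of the cytosolic multi-synthetase complex. They were taken by name, and the list was made with earlier results of these data known. All 39 of 39 were listed among the 13197 genes of the founder tables and the 12803 genes of the F1 tables. RNA was sequenced from 68 cultures of primary mouse embryonic fibroblasts (MEFs) that had been exposed for 4 h either to 0.1% DMSO (control) or to 2 ug/ml of tunicamycin (TM), a drug that blocks N-linked glycosylation and causes misfolded protein to accumulate in the endoplasmic reticulum (ER).

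Of these libraries, 40 came from 8 inbred founder strains: A/J (called A from here on), C57BL/6J (B6), 129S1Sv/ImJ (129), NOD/ShiLtJ (NOD), NZO/H1LtJ (NZO), CAST/EiJ (CAST), PWK/PhJ (PWK) and WSB/EiJ (WSB). The other 28 came from 5 F1 crosses of B6 with CAST, 129, NOD, NZO or WSB, written xCAST, x129, xNOD, xNZO and xWSB. Each genotype had 2 or 3 control and 2 or 3 TM libraries, so there were 18 control and 22 TM libraries from founders and 14 of each from F1 crosses. No genotype carried an engineered allele. The MEFs of a genotype were 1 pooled stock of embryos, so a genotype stands for that stock and its replicates are cultures of it. The comparison asks whether the cytosolic and the mitochondrial synthetases respond alike to ER stress and whether the genotypes differ in it.

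An aminoacyl-tRNA synthetase joins 1 kind of amino acid to its tRNAs. The cytosol and the mitochondrion each need a set of these enzymes, and in most cases separate nuclear genes supply them, while Gars and Kars each encode both forms and Eprs charges both glutamate and proline in the cytosol. In stressed cells the kinase PERK and its relatives phosphorylate the initiation factor eIF2, translation of the transcription factor ATF4 rises, and ATF4 binds C/EBP-ATF response elements near genes for amino acid supply, among which cytosolic synthetases are well known.

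Reads on genes ranged from 7091923 to 21530282 per founder library and from 6442976 to 29528457 per F1 library, as recovered from the deposited values in 66 of the 68 libraries. TM acted in each set: Hspa5, the main chaperone of the ER lumen, was 7.08 times higher in TM than in control over the founders and 7.48 times higher over the F1 crosses, and Ddit3, the stress transcription factor CHOP, was 14.9 and 13.6 times higher. The summed level of 8 fibroblast markers was 19911 to 54672 in founder controls and 16917 to 48511 in founder TM libraries. In 4 of the 8 (Col3a1, Pdgfrb, Thy1 and Fn1, named after their values were seen) the level was lower with TM. On average over the founders, TM lowered 21.9% of all genes (limma, adjusted p under 0.01). All 6 myeloid, all 4 endothelial and 2 of 4 epithelial markers were listed in the founders, but their sums reached only 18.0, 17.9 and 4.34; Epcam and Krt5 were not listed. In these bulk samples fewer cells of a type and less RNA per cell cannot be told apart, and the part of the marker change in the results below was not tested. Over all genes, 4 libraries lay farthest from their own group: A control 1 and A TM 2 among the founders, and xNZO control 3 and xWSB control 1 among the F1 crosses. A control 1 also had the highest Hspa5 value of any founder control, 1587 against a control median of 879.

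TM raised most of the cytosolic synthetase genes, while the mitochondrial ones were raised in the founders about as often as all genes. Averaged over the 8 founder strains, 14 of the 20 cytosolic genes were higher in TM at an adjusted p under 0.01 (limma, Benjamini-Hochberg over all genes), as were 20.5% of all genes tested. Of these 14 genes, 9 rose by at least 1.5 fold, a change that 6.04% of all genes reached. None of the 20 was lowered, against 21.9% of all genes. Of the 16 mitochondrial genes, 3 were raised, a share near the 20.5% of all genes, and none of the 3 rose by 1.5 fold. Of the rest 1 was lowered, against 21.9% of all genes, and 12 did not pass. The median log2 change was 0.53 over the cytosolic genes, 0.07 over the mitochondrial genes and -0.04 over all genes tested.

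**Figure D1:**
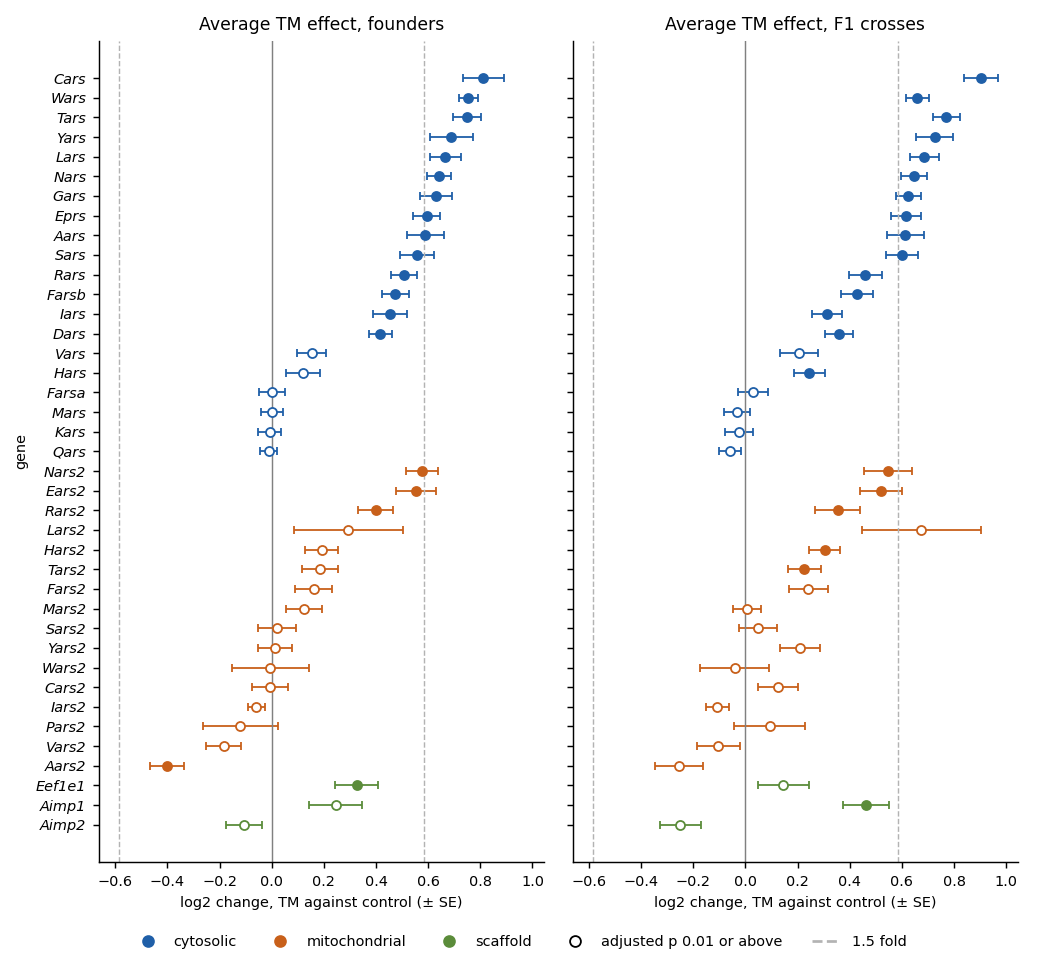
Average log2 change between TM and control (x axis) of each of the 39 genes (y axis) in the 8 founder strains and the 5 F1 crosses. Points are limma estimates with 1 SE, filled where the adjusted p was under 0.01; the 14 raised cytosolic genes of the founders run from 0.42 (Dars) to 0.81 (Cars), while Aars2 is the filled point on the negative side, at -0.40.

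The largest average change among the members was that of Cars, the cytosolic cysteinyl-tRNA synthetase gene (chr7:143557230-143600090, minus strand, GRCm38). Its deposited value, which is proportional to reads per gene and not divided by gene length, was 103, 119 and 241 (lowest, median, highest) in the 18 founder controls and 167, 216 and 321 in the 22 TM libraries. The control ranges overlap the TM ranges only through A control 1, the control at 241; the other 2 controls of A were at 120 and 114 and the 3 TM libraries of A at 216, 264 and 287. The average log2 change was 0.81 ± 0.08 (SE), or 1.76 fold. In PWK the 3 controls were at 103, 104 and 103 and the 3 TM libraries at 216, 192 and 227, which was the largest Cars change of any founder strain.

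Wars, Tars, Nars and Gars were the cytosolic genes whose TM and control libraries overlapped in no founder strain. Wars, the tryptophan enzyme, was 73.1, 88.1 and 126 in founder controls and 117, 148 and 206 in TM libraries. Its change was 0.75 ± 0.04, the smallest SE among the 9 genes that rose by 1.5 fold, and it lay between 1.53 fold in B6 and 1.82 fold in NZO. Tars, the threonine enzyme, was 156, 180 and 262 in controls and 257, 309 and 372 in TM libraries (0.75 ± 0.05). For Wars, Tars, Nars (0.64 ± 0.05) and Gars (0.63 ± 0.06), the asparagine and glycine enzymes, each TM library lay above each control of its own strain in all 8 strains; 4.12% of all genes did so. In the other 10 raised cytosolic genes this held in fewer strains, 7 for Aars, Cars, Dars, Eprs, Farsb, Lars, Rars, Sars and Yars and 5 for Iars. For Aars, Cars, Eprs, Lars, Sars and Yars the strain with overlap was A, through A control 1 alone. For Dars, Farsb and Rars it was NOD, through NOD control 1 alone. Among the 6 cytosolic genes that did not pass it held in 2 strains each for Farsa and Hars, in 1 each for Kars, Qars and Vars, and in 0 for Mars.

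The remaining raised cytosolic genes lay between 0.42 and 0.69 on the log2 scale. Yars (0.69 ± 0.08), Lars (0.67 ± 0.06), Eprs (0.60 ± 0.05) and Aars (0.59 ± 0.07), which charge tyrosine, leucine, glutamate with proline, and alanine, passed 1.5 fold. With median-of-ratios scaling Eprs and Aars, both at 0.58, fell just short of it. Sars (0.56 ± 0.07), Rars (0.51 ± 0.05), Farsb (0.47 ± 0.05), Iars (0.45 ± 0.06) and Dars (0.42 ± 0.04), for serine, arginine, phenylalanine, isoleucine and aspartate, rose by less. Aars had the highest control values of these, 350, 413 and 719 in controls against 520, 621 and 885 with TM, and its highest control was again A control 1. Without the 2 founder libraries farthest from their group, 15 cytosolic genes were raised and 9 of them by 1.5 fold.

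The other 6 cytosolic genes did not pass. Mars, for methionine, was 107, 115 and 144 in controls and 96.5, 117 and 136 with TM, a log2 change of 0.00 ± 0.04 with a 95% interval from -0.09 to 0.09. Kars, the lysine enzyme, was at -0.01 ± 0.05 (131, 163 and 227 against 135, 165 and 203), Qars, the glutamine enzyme, at -0.01 ± 0.03 and Farsa at 0.00 ± 0.05. Their control and TM ranges overlap almost entirely. Vars (0.15 ± 0.06, adjusted p = 0.0212) and Hars (0.12 ± 0.06, adjusted p = 0.119), for valine and histidine, had small positive changes. The upper 95% limit of each of the 6 was below 1.5 fold. Vars passed in an edgeR test on the whole reads (0.18, adjusted p = 0.00915).

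**Figure D2:**
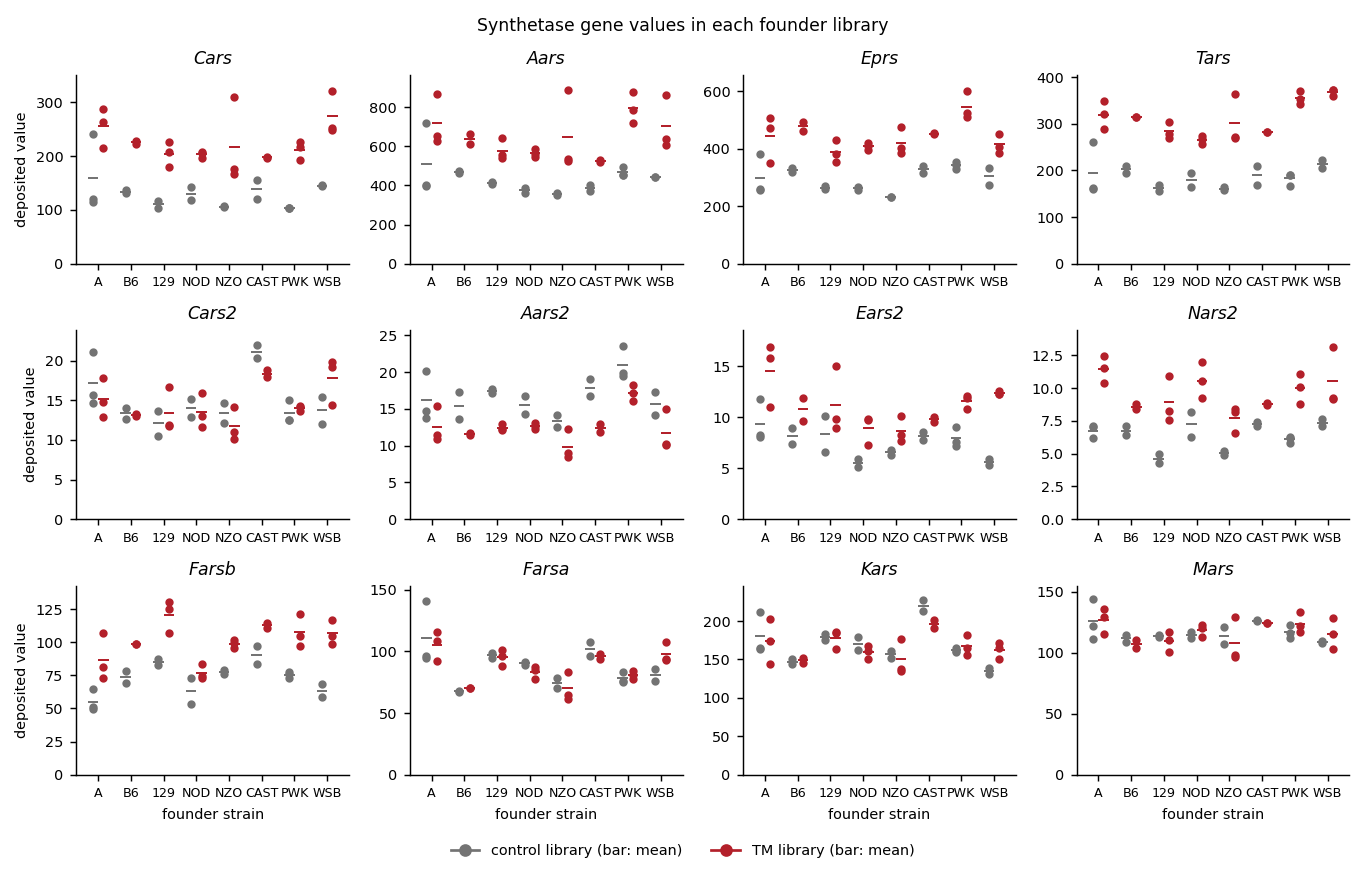
Deposited value (y axis, proportional to reads per gene) of 12 members in every founder library, by strain (x axis). Grey points are controls, red points TM libraries and bars their means; Cars, Aars, Eprs and Tars separate by treatment outside strain A, whereas Kars and Mars overlap.

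The enzyme for phenylalanine is built from 2 kinds of subunit, and their genes gave different values. Farsb, the beta subunit (chr1:78417975-78488897), was 49.4, 74.6 and 97.4 in founder controls and 72.7, 100 and 131 with TM. Farsa, the alpha subunit (chr8:84856989-84869257), was 67.2, 87.3 and 141 in controls and 61.7, 87.6 and 115 with TM. Farsb changed more than Farsa in 8 of 8 strains, by 0.37 to 0.70 on the log2 scale with a mean of 0.47, and in 5 of 5 F1 crosses, by 0.17 to 0.59 with a mean of 0.40. In PWK the ratio of the Farsb to the Farsa value was 0.873 to 1.03 in the 3 controls and 1.199 to 1.44 in the 3 TM libraries. This pair was singled out after its values were seen, so no test is given. Of the exon bases of Farsb 9.47% also belong to Sgpp2 on the other strand.

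Raised genes were found inside and outside the multi-synthetase complex. Of the 8 cytosolic enzymes of the complex 5 were raised (Dars, Eprs, Iars, Lars and Rars, against Kars, Mars and Qars), with a median log2 change of 0.44. Of the 12 outside it 9 were raised, with a median of 0.61. Both structural classes of synthetase held raised genes, 6 of 9 in class I (median 0.51) and 7 of 10 in class II (median 0.51), with Eprs spanning the 2 classes. Of the scaffold genes, Eef1e1 was raised (0.33 ± 0.08, adjusted p = 0.00137), Aimp1 was at 0.25 ± 0.10 (adjusted p = 0.0426) and Aimp2 at -0.11 ± 0.07. The value of Eef1e1 was 23.1, 35.7 and 50.4 in controls and 29.2, 46.9 and 67.2 with TM, ranges that overlap. With a replicate block the change of Eef1e1 was 0.26 and did not pass (adjusted p = 0.0629). Aimp2 shares 29.4% of its exon bases with Eif2ak1 on the other strand, whose own change was -0.05. Without the 2 founder libraries farthest from their group, Aimp1 was raised (0.27) and Aimp2 lowered (-0.17).

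Among the mitochondrial genes, Nars2, Ears2 and Rars2 rose. Nars2, for asparagine (chr7:96951505-97064758), was 4.26, 6.35 and 8.17 in founder controls and 6.56, 9.20 and 13.2 with TM, a change of 0.58 ± 0.06 or 1.49 fold. It was the only mitochondrial gene whose TM libraries lay above the controls of their strain in all 8 strains. Of all genes, 4.12% did so. Ears2, for glutamate (chr7:122037213-122067263), was 5.17, 7.49 and 11.8 in controls and 7.24, 10.4 and 16.9 with TM, a change of 0.55 ± 0.08. In WSB its 2 controls were at 5.34 and 5.88 and its 3 TM libraries at 12.3, 12.6 and 12.3, while in 129 the controls (6.60 and 10.2) and TM libraries (15.0, 9.81 and 8.93) overlapped. Rars2, for arginine, was 4.84, 10.0 and 14.4 in controls and 6.29, 13.4 and 16.8 with TM (0.40 ± 0.07).

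Aars2, the mitochondrial alanine enzyme (chr17:45506841-45520843), fell. Its value was 12.5, 16.96 and 23.5 in founder controls and 8.41, 12.3 and 18.3 with TM. Its log2 change was -0.40 ± 0.07 (0.757 fold, adjusted p = 6.53e-06), negative in 8 of 8 strains, and each TM library lay below each control of its strain in 6 of them; 9.74% of all genes did so in 6 or more strains. In NZO the controls were at 12.5 and 14.1 and the TM libraries at 8.93, 8.41 and 12.3. Without NZO TM 3 the number of lowered mitochondrial genes was 2.

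The other 12 mitochondrial genes did not pass in the founders. Hars2 (0.19 ± 0.06, adjusted p = 0.0116), Tars2 (0.18 ± 0.07, adjusted p = 0.0263) and Fars2 (0.16 ± 0.07) had the largest positive changes apart from Lars2. Cars2, Yars2, Sars2, Wars2 and Iars2 lay between -0.06 and 0.02, and Vars2 was at -0.19 ± 0.07 (adjusted p = 0.0206). The upper 95% limit was below 1.5 fold for 11 of the 12. Without A control 1 the number raised was 5 instead of 3, as it was without both founder libraries that lay farthest from their group, when Hars2 (0.23) and Tars2 (0.20) passed.

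Lars2, the mitochondrial leucine enzyme (chr9:123366927-123462666), was the exception in level and in spread. It ranged from 225 to 2148 in founder controls and from 284 to 2932 with TM. In NOD its controls were at 2148 and 495 and its TM libraries at 717, 637 and 2932, and in A its controls were at 1152, 225 and 253. Its change of 0.29 had an SE of 0.21 and a 95% interval from -0.14 to 0.72, so that a change of 1.5 fold was within the interval. At the other end, Pars2 and Wars2 were the least abundant members, with as few as 4 and 11 reads in a founder library, and their SEs of 0.14 and 0.15 were the next largest.

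Set by amino acid, 13 of 16 pairs showed a larger average change of the cytosolic gene in the founders and in 10 pairs it was larger in each of the 8 strains. The widest gap was that of alanine, where Aars rose and Aars2 fell: 0.99 on the log2 scale, with 0.83 the smallest and 1.27 the largest among strains. Cysteine (0.82), tryptophan (0.76), proline (0.72) and tyrosine (0.68) followed. In asparagine (0.06), glutamate (0.04) and arginine (0.11) both genes rose and the gap changed sign among strains. Histidine (-0.07), methionine (-0.12) and phenylalanine with Farsa (-0.16) had the larger value on the mitochondrial side, without a raised gene in the pair. Hars and Hars2 lie head to head and share 195 exon bases. Eprs stands in both the glutamate and the proline pair.

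**Figure D3:**
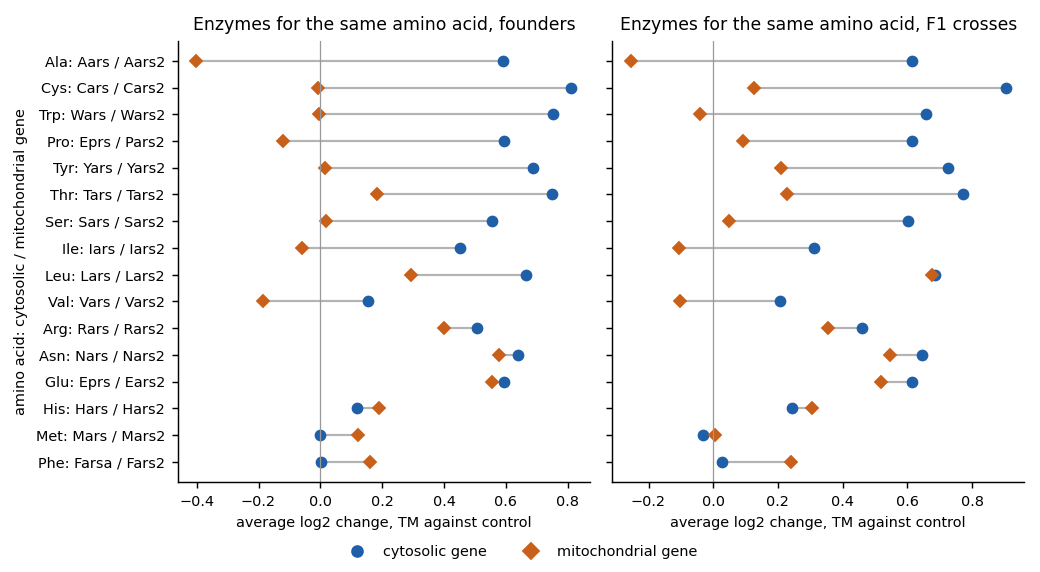
Average log2 change (x axis) of the cytosolic gene (circle) and the mitochondrial gene (diamond) that charge the same amino acid (y axis), in founders and F1 crosses. The gap is widest for alanine, 0.99 in founders and 0.87 in F1 crosses, and under 0.11 for asparagine, glutamate and arginine in both.

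Per TM library the median change of the 20 cytosolic genes exceeded that of the 16 mitochondrial genes in 22 of 22 founder libraries and 14 of 14 F1 libraries. The difference was 0.410 ± 0.106 (mean and SD over 8 strains), from 0.274 in 129 and 0.290 in CAST to 0.474 in PWK and 0.611 in NZO. Within 129 it ran from 0.0514 in TM 1 upward, and the mitochondrial median of TM 1 was 0.473, the highest of any founder library. In CAST the cytosolic median itself was low, 0.319, and in NZO the mitochondrial median was -0.018. In the F1 crosses the difference was 0.319 ± 0.141 over 5 crosses, lowest in xWSB (0.122) and highest in xCAST (0.495). The xWSB mitochondrial median was 0.356. One of the xWSB controls, control 1, is among the libraries farthest from their group, and its part in the xWSB value was not tested. Without the F1 libraries farthest from their group the mean difference over the crosses was 0.301. The median over all genes stayed between -0.0675 and 0.0149 in these 36 TM libraries. The TM libraries of a genotype were set against the same mean control, so their differences are not independent. Members of a family are not replicates, and no test was made of these medians.

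**Figure D4:**
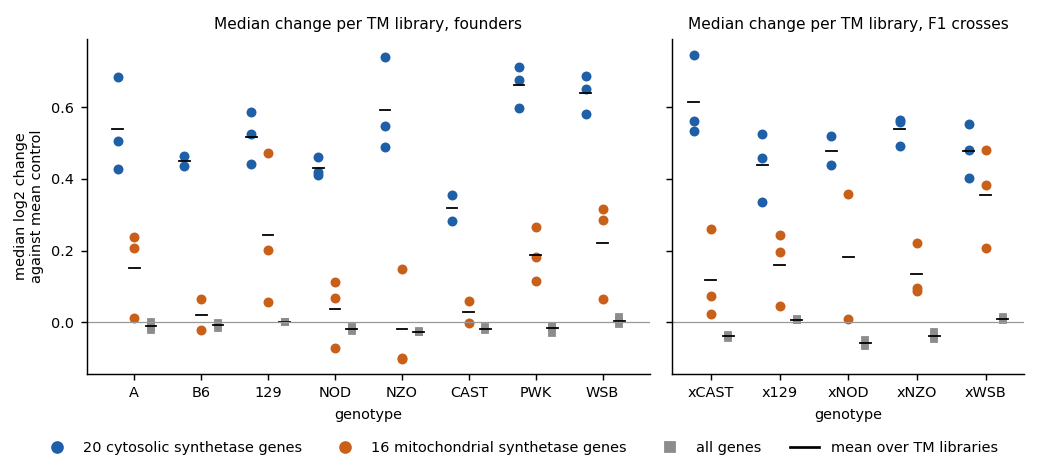
Median log2 change against the mean control of the genotype (y axis) over the 20 cytosolic genes, the 16 mitochondrial genes and all genes, 1 point per TM library, by genotype (x axis), with bars for the mean. The cytosolic point of a library lies above its mitochondrial point in all 36 libraries, most narrowly in 129 TM 1 (0.0514) and xWSB TM 3 (0.0740).

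The F1 crosses, normalized apart from the founders, gave a separate set of libraries for the same genes. There 15 of 20 cytosolic genes were raised, against 16.9% of all genes, and 10 of them by 1.5 fold, against 4.95%. Of the 16 mitochondrial genes 5 were raised, against 16.9% of all genes, and 0 lowered, against 18.7%. The 14 cytosolic and the 3 mitochondrial genes raised in the founders were raised in the F1 crosses too. Cars again had the largest change, 0.90 ± 0.06 or 1.87 fold, with values of 76.4, 97.1 and 134 in the 14 controls and 143, 175 and 279 in the 14 TM libraries, which do not overlap. In 10 cytosolic genes each TM library lay above each control of its cross in all 5 crosses, against 4.53% of all genes; no mitochondrial gene did so.

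Hars was the fifteenth cytosolic gene, at 0.24 ± 0.06 (adjusted p = 0.00159). Nars2 (0.55 ± 0.09), Ears2 (0.52 ± 0.08), Rars2 (0.35 ± 0.09), Hars2 (0.30 ± 0.06) and Tars2 (0.23 ± 0.06, adjusted p = 0.0056) were the raised mitochondrial genes. Tars2 did not pass with a replicate block (0.22, adjusted p = 0.0332). Aars2 was at -0.25 ± 0.09 (adjusted p = 0.0279), with values of 7.78, 11.3 and 14.9 in controls and 6.62, 9.62 and 14.1 with TM, ranges that overlap. It was at 0.15 in xWSB and negative in the other 4 crosses. Lars2 was at 0.67 ± 0.23 (adjusted p = 0.0177). Without xWSB control 1 the number of raised mitochondrial genes was 8. Aimp1 was the raised scaffold gene here, at 0.46 ± 0.09 (adjusted p = 0.000157), and Eef1e1 was at 0.15 ± 0.10. Aimp2 was at -0.25 ± 0.08 and did not pass in the main fit (adjusted p = 0.0107), with a median value of 23.2 in controls and 19.8 with TM. It passed as lowered with a replicate block (-0.26, adjusted p = 0.00658), with a filter on a mean value of at least 2 (adjusted p = 0.00945) and in 6 of 28 fits that left out 1 library.

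Within single genotypes, with 4 to 6 libraries per fit, 30 of 160 gene and strain combinations of cytosolic genes were induced (adjusted p under 0.01 and at least 1.5 fold) and 2 of 128 of mitochondrial genes: Nars2 in PWK (1.62 fold) and Ears2 in WSB (2.19 fold). PWK had 11 induced cytosolic genes (6.36% of all genes induced there), WSB 10 (2.85%), B6 6 (5.04%), NOD 2 (1.45%) and CAST 1 (2.54%). A, 129 and NZO had none, with 0.346%, 0.315% and 0.32% of all genes induced. In the F1 crosses the count was 19 of 100 for cytosolic genes, 5 each in xCAST (2.52%), xNOD (3.69%) and xNZO (1.44%), 4 in x129 (4.88%) and none in xWSB (0.185%), and 0 of 80 for mitochondrial genes; among the scaffold genes only Aimp1 in xNOD was induced (1.66 fold). No member was lowered by 1.5 fold in any genotype, against 1.55% of gene and genotype combinations in the founders and 1.47% in the F1 crosses. Wars was induced in 8 genotypes, Cars and Tars in 7 each.

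Fold changes in strains without calls included large ones. Cars was 1.97 fold higher in NZO (adjusted p = 0.133) and 1.70 fold higher in A (adjusted p = 0.350), where the 3 controls had an SD of 71.7 around 159. The median residual SD over genes, on the log2 scale, was 0.350 in A and 0.311 in xWSB against 0.105 in B6. The counts moved with the variance model: 1 fit over each set gave 50 cytosolic combinations in founders and 41 in F1 crosses, the same fits with a replicate block 7 and 27, and fits per genotype without a trend in the prior variance 11 and 3.

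No member passed the test of a different TM effect among strains, for which 0.174% of founder genes and 0.0547% of F1 genes passed. This count of 0 was the same in edgeR's quasi-likelihood test. At an unadjusted p under 0.05 there were 0 members in the founders and 1 in the F1 crosses. That gene was Iars, whose adjusted p in limma was 0.782. Iars was at -0.06 in xNOD and 0.52 in xNZO. A p above the threshold does not show that the strains responded alike: the Ears2 change lay between 0.26 in CAST and 1.13 in WSB.

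The level in control cells differed among strains for some members. In 8 of 39 members the control level differed among the founder strains (adjusted p under 0.01), as it did in 37.2% of all genes. Rars2 had the widest ratio, 5.95 ± 1.57 in WSB (SD, n = 2) against 13.3 ± 1.35 in B6 (n = 2), and both WSB controls lay below all other controls. Dars was lowest in 129, at 42.9 ± 0.175, and highest in CAST, at 81.8 ± 7.49. Wars was highest in B6, at 125 ± 0.127, above all other controls, and lowest in NOD, at 76.6 ± 4.99. Lars was lowest in NZO (92.3 ± 0.324), Iars2 was lowest in 129 (73.9 ± 3.39) and highest in WSB (105 ± 0.579), and Kars was lowest in WSB (135 ± 5.47) and highest in CAST (220 ± 10.2), and in each case the controls named do not overlap those of any other strain. Farsb had its lowest mean in A (55.0 ± 8.23, n = 3). Farsa was lowest in B6 (67.6 ± 0.605), and its highest mean, in A (111 ± 26.1), rested on A control 1, at 141; the other 2 controls of A, at 94.8 and 96.2, lay within the range of the 129 and CAST controls. Leaving out single libraries gave 6 to 10 such members.

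**Figure D5:**
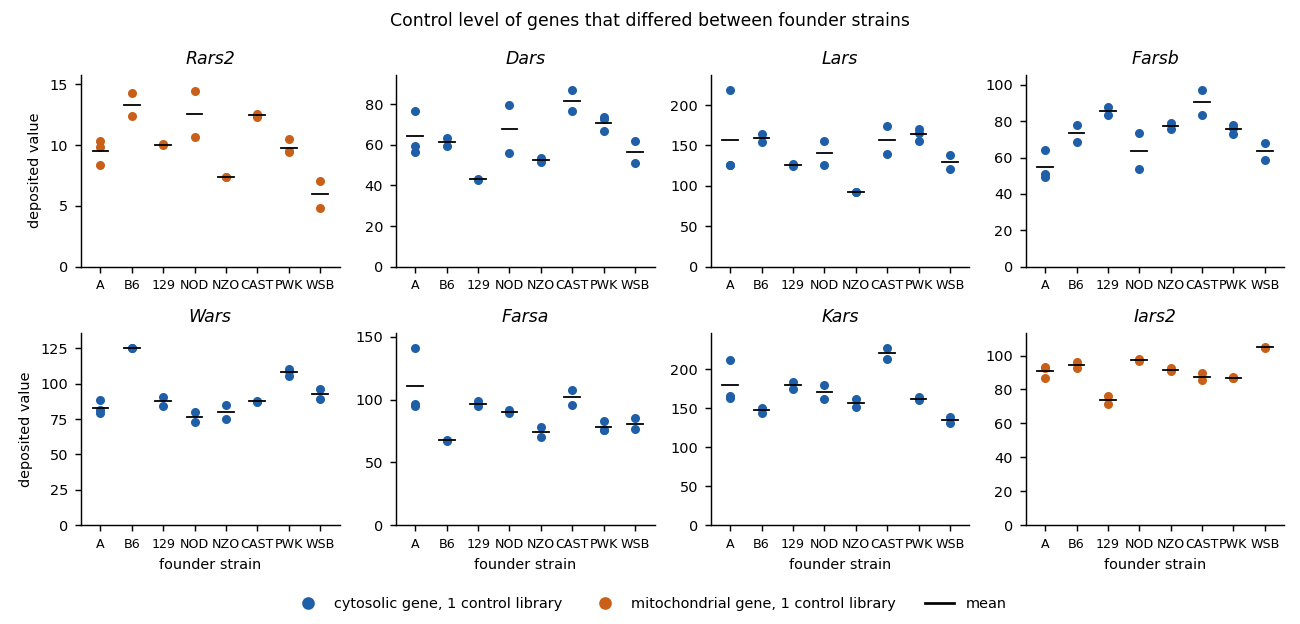
Deposited value (y axis) of the 8 members whose control level differed among founder strains, 1 point per control library, by strain (x axis), with bars for the mean. Rars2 and Iars2 are mitochondrial; Wars stands apart in B6 (125) and Kars in CAST (220).

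Per kilobase of merged exon, the control level of the cytosolic genes was above that of almost all mitochondrial genes. In the founders the median over control libraries ran from 14.0 (Dars) to 113 (Gars) per kilobase for cytosolic genes, with a median of 32.0, and from 0.410 (Pars2) to 38.2 (Lars2) for mitochondrial genes, with a median of 3.59. The highest mitochondrial gene other than Lars2 was Iars2, at 10.3 per kilobase, below every cytosolic gene. The F1 crosses gave medians of 25.7 and 2.62 per kilobase. The scaffold genes lay at 10.6 to 18.5 per kilobase in the founders. Merged exons include those of rare transcripts, so these levels are approximate.

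The promoters were searched for the core of the C/EBP-ATF response element, TGATGNAA, on both strands of the window from 250 bases before to 50 bases after the RefSeq start (GRCm38.p6). RefSeq windows were at hand for 13 cytosolic, 14 mitochondrial and 3 scaffold members. Of all 32851 windows, 1304 or 3.97% held the motif. Counted by gene, it was present in any window of 5 of the 13 cytosolic, 0 of 14 mitochondrial and 0 of 3 scaffold genes. For comparison, it was present in 10 of 26 other known ATF4 targets. These counts are of genes and the share above is of windows, so they are not like for like. The 5 genes with the motif were all raised (median log2 change 0.63). Of the 8 cytosolic genes with a window but no motif, 4 were raised (Dars, Eprs, Farsb and Sars). The remaining 4 were not (Farsa, Kars, Mars and Qars), and the median of the 8 was 0.21. Another 7 cytosolic genes had no window and were not searched. Of these 7, 5 were raised (Cars, Lars, Nars, Rars and Wars), and the median of the 7 was 0.64, about that of the genes with the motif. A match is a description of these letters and not a measured binding site.

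The match nearest the start of each of the 5 genes is shown, because the motif occurs in these 5 raised cytosolic genes and in no mitochondrial window at hand. Each is a stretch of 30 bases on the coding strand, 5′ to 3′, with the motif or its reverse complement in capitals; positions count from the RefSeq start, negative upstream of it and positive downstream.
Aars, chr8:111033840-111033869, plus strand, position 10: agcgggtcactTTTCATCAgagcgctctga
Gars, chr6:55037960-55037989, plus strand, position -30: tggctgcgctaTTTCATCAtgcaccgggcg
Iars, chr13:49682126-49682155, plus strand, position 8: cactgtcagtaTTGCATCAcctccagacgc
Tars, chr15:11399655-11399684, minus strand, position -15: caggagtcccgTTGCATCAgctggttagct
Yars, chr4:129189895-129189924, plus strand, position 4: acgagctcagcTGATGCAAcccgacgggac
In 4 of the 5 the reverse complement is on the coding strand, and Yars has it in the forward direction. Ensembl places the gene starts of Aars, Iars and Yars upstream of these matches, at 111033144, 49682100 and 129189760, so the 3 matches lie within those gene models. The 5 genes changed by 0.59 (Aars), 0.63 (Gars), 0.45 (Iars), 0.75 (Tars) and 0.69 (Yars) on the log2 scale in the founders.

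Other gene groups of the pathway were counted in the same fits. Of all genes, 20.5% were raised and 21.9% lowered in the founders, and 16.9% and 18.7% in the F1 crosses. Of 29 measured ATF4 targets outside tRNA charging, 28 were raised in the founders and 27 in the F1 crosses, with median log2 changes of 1.00 and 0.86; Ddit3 (3.90), the hormone gene Fgf21 (3.52) and the transcription factor Atf3 (3.28) led and Cebpb, which did not pass, was lowest (0.08). All 12 ER chaperone and quality control genes were raised in both sets, from 0.81 (Calr) to 4.30 (Herpud1) in the founders. Of 14 other genes of tRNA charging, 4 were raised in each set, with Sepsecs, which makes selenocysteinyl-tRNA (0.62), Prorsd1 (0.56) and the tRNA exporter Xpot (0.53) highest and Mtfmt, the mitochondrial formyltransferase, lowest (-0.17, adjusted p = 0.014). Of 20 mitochondrial ribosome genes, 7 were raised in the founders and 8 in the F1 crosses and none was lowered, with medians of 0.15 and 0.22; Mrpl1 (0.40), Mrps22 (0.31) and Mrps27 (0.28) were highest and Mrpl4 (-0.12) lowest. The median of the mitochondrial synthetases, 0.07 and 0.17, was thus near that of the mitochondrial ribosome genes, and that of the cytosolic synthetases, 0.53 in each set, lay between those of the mitochondrial genes and of the ATF4 targets.

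Some members share transcribed bases with a neighbour, and whether counting used strand is not given in the sources used here. Mars shares 68 of its 3423 exon bases with Ddit3 on the other strand, and its value did not change although Ddit3 rose 14.9 fold. Iars2 shares 2034 of 8885 exon bases with Rab3gap2 on the other strand. Aars shares 1326 of 9282 with Exosc6 on the same strand, where strand would not separate the reads. Iars matches the processed pseudogene Gm4849 at 96.0% identity over 1656 bases, so its reads may be split between them.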

How the data were processed

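Single-end 100 bp mRNA libraries were analysed. Per the submitters' processing notes, reads were aligned with TopHat 1.4.1; the authors used strain-specific genomes, TMM scaling in edgeR, and removal of libraries that did not cluster with their condition, which are not analysed here. The deposited values are called FPKM, the unit assumed when tests were planned, but they are the authors' normalized signal: whole multiples of 1 step per library (tolerance 0.05 reads, 100% of values whole), not divided by gene length. Founder and F1 tables were scaled separately. Unassigned lines (15.5 to 24.1% of F1 values) were left out.

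Values were tested with limma 3.58.1 in R 4.3.3 (trend in the prior variance) on log2(value + 0.1), for genes with at least 0.5 in at least 2 libraries, so fold changes of low genes are understated. Averages weigh genotypes equally. Adjusted p is Benjamini-Hochberg over all genes; under 0.01 is raised or lowered, and with 1.5 fold induced. Intervals (95%) use the residual degrees of freedom. Alternatives included edgeR 4.0.16 on recovered reads. The p-values measure only the spread between cultures of 1 MEF stock. Replicate numbers were checked for pairing, which so few libraries per group cannot decide. The main fits did not use the replicate numbers. No 2 replicates agreed within sampling noise. Any member could be named; of other lists, the 3 highest and the lowest in founders. Members and lists were chosen with earlier results of these data known. Scripts were tested on simulated data.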

Additional observations from a re-analysis of the deposited data

How the results depend on the processing

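Average changes of single members were compared with another pseudocount (1), other filters, median-of-ratios scaling, no trend in the prior variance, a replicate block, edgeR on whole reads, the extremes of leaving out single libraries and without the libraries farthest from their group. Of 777 such comparisons 751 kept their call at an adjusted p under 0.01 and 24 gained it. The 2 that lost it were Eef1e1 in founders and Tars2 in F1 crosses, both with the block. Without a filter the genes tested were those of the main fit, so these 78 comparisons could not differ from it. Of the changes that passed in either fit, 0 had the opposite sign in the other. Changes that passed in neither could switch sign, as Wars2 did in founders, from -0.0706 to 0.059 when single libraries were left out. The leave-one-out fits compared here are those with the lowest and highest log2 change of a member, not those with the largest adjusted p. With median-of-ratios scaling 7 instead of 9 cytosolic genes rose by 1.5 fold in founders. The counts within genotypes moved. Without a trend in the prior variance they were 11 cytosolic and 1 mitochondrial in founders and 3 cytosolic in F1 crosses; with 1 fit over the set 50, 4, 41 and, for F1 mitochondrial genes, 1. edgeR gave 1 mitochondrial combination in founders. Without the libraries farthest from their group, an alternative chosen after seeing the data, 5 mitochondrial genes were raised in founders.

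Whether libraries with the same replicate number are paired was not settled: 11 of 29 same-numbered pairs correlated above 0.1 (range -0.637 to 0.489). With so few libraries per group these correlations cannot decide it. Within genotypes the block could be tried in 1 fit over the set, where the counts went from 50 to 7 cytosolic and from 4 to 0 mitochondrial in founders and from 41 to 27 and from 1 to 1 in F1 crosses. With the block, over all founder genes 1563 were raised and 1419 lowered on average. The average counts of cytosolic and mitochondrial genes kept their values with the block, except 4 instead of 5 raised mitochondrial genes in F1 crosses. Among the scaffold genes Eef1e1 lost its call in founders and Aimp2 was lowered in F1 crosses.

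Leaving out 1 library at a time gave these ranges. In founders, cytosolic raised 14 to 15, by 1.5 fold 7 to 10, mitochondrial raised 3 to 5 and lowered 1 to 2, control level 6 to 10, within-genotype cytosolic 20 to 37 and mitochondrial 1 to 3, difference of medians 0.401 to 0.424. In F1 crosses, cytosolic raised 15 to 16, by 1.5 fold 8 to 10, mitochondrial raised 4 to 8 and lowered 0 to 1, within-genotype cytosolic 14 to 23 and mitochondrial 0 to 2, difference 0.276 to 0.362. The interaction count was 0 throughout. Tars2 in the F1 crosses passed in 23 of 28 such fits (largest adjusted p 0.0152 in limma). Depth limits Pars2 and Wars2 most, with as few as 3 and 8 reads in a library. The causes were not tested.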
